A study of Mus musculus with 23 samples.

Results

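Cytosolic nucleic acid sensing was followed in mouse hippocampus through 10 of the 54232 gene identifiers in the count tables, of which 40290 had reads. They were chosen by name and found through their Ensembl identifiers. The RNA arm held Ddx58 (also called Rigi), Ifih1, Dhx58, Zbp1 and Adar. The DNA arm held Mb21d1 (also called Cgas), Tmem173 (also called Sting1), Aim2, Ifi204 and Trex1. The question was whether RNA or DNA sensors differ in tau-transgenic hippocampus, as possible sources of an interferon response.

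Cells carry receptors that bind nucleic acid in the cytosol, where viral RNA and stray host nucleic acid can appear. RIG-I, encoded by Ddx58, and MDA5, encoded by Ifih1, bind double-stranded RNA and signal through the mitochondrial adaptor MAVS, whereas cGAS, on binding DNA, makes a cyclic dinucleotide that activates STING, the product of Tmem173. Both routes meet at the kinase TBK1 and at interferon regulatory factors that switch on type I interferon. Several sensor genes are themselves interferon-stimulated, so a higher transcript level can precede or follow an interferon response, and in brain much of this machinery is held by microglia.

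Poly(A) RNA from the hippocampus of C57BL/6 mice was sequenced in 23 libraries. At 9 months of age there were 4 libraries of PS19 mice heterozygous for Lsd1 (PS19;Lsd1Δ/+, here PS19_Lsd1het), 4 of PS19 mice with both Lsd1 copies (PS19), 2 of Lsd1 heterozygotes without the transgene (Lsd1Δ/+, here Lsd1het) and 4 of wild-type mice (WT). PS19 mice carry a P301S mutant tau transgene, driven by the prion protein promoter, and are used as a tauopathy model. At 11 months every mouse used had a neuron-specific adeno-associated virus put into the hippocampus: 3 libraries were of PS19 mice given LSD1 (PS19_rescue), 3 of PS19 mice given the HA control (PS19_HA) and 3 of wild-type mice given the HA control (WT_HA). LSD1, encoded by Kdm1a, is a histone demethylase. Whether each library stands for its own animal is not stated in the labels. The p-values therefore measure the spread between these samples alone, and that spread may be technical.

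Library totals ran from 15451494 to 24644977 counted reads. Kdm1a stood at 35.2 to 56.5 CPM in PS19_Lsd1het and 35.4 to 36.4 CPM in Lsd1het, against 48.7 to 61.6 CPM in PS19 and 51.4 to 61.4 CPM in WT, so 1 library labelled PS19_Lsd1het lay at the wild-type level. It stood at 1727 to 10808 CPM in PS19_rescue, against 60.5 to 63.2 CPM in PS19_HA. Prnp, whose promoter drives the transgene, read 1072 CPM or more in every transgenic library, against 923 CPM or less in the others. The mitochondrial share of reads was 16.1% in replicate 3 of PS19 and 33.9% in replicate 3 of WT, it was 16.2% in replicate 2 of WT_HA, and it was at most 6.04% elsewhere. At 9 months the first principal component, with 50.5% of the variance, set replicates 3 and 4 apart from replicates 1 and 2 in each group that had them, so values within both sets are given below. Libraries at 9 months were all of male type, and at 11 months both sexes occurred in each group.

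The promoters of a pair of RNA receptors are shown for the interferon-type motif they hold, beside that of the DNA receptor cGAS, which holds none. RefSeq windows (GRCm38.p6, 250 bases before to 50 after the start) were held for 6 of the 10 members: Ddx58, Ifih1, Adar, Mb21d1, Aim2 and Trex1. The windows were searched on both strands for the interferon-stimulated response element written as GAAANNGAAA, and for the interferon-gamma-activated type TTCNNNGAA, which reads the same on both strands. These motif types do not overlap in any member's window. Capitals mark the GAAANNGAAA match, which in Ddx58 lies on the opposite strand.
Ddx58: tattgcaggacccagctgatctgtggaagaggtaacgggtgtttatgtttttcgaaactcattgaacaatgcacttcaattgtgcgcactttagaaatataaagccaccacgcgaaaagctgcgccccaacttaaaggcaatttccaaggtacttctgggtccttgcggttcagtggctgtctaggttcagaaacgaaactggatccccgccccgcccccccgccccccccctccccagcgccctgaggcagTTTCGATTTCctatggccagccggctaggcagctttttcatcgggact
Ifih1: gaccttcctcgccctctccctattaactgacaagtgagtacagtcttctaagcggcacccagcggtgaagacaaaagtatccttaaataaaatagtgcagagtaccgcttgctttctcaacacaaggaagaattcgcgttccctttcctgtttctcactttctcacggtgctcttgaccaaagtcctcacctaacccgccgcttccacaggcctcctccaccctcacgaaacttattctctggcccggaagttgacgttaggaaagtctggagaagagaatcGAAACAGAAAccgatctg
Mb21d1: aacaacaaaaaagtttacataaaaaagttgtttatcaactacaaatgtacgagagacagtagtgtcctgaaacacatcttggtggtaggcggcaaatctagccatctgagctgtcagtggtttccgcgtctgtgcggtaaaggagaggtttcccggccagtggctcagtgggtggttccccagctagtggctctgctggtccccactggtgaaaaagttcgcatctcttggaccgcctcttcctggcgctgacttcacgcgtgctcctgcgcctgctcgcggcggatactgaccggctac
The Ddx58 window is chr4:40239776-40240075, minus strand, and its match covers bases 253 to 262 of the window. The Ifih1 window is chr2:62646206-62646505, minus strand, with its match at bases 283 to 292. Both matches lie just after the annotated start. The Mb21d1 window, chr9:78443188-78443487, minus strand, has no match of either kind. GAAANNGAAA was found in 2 of the 6 members with a window and in 3.44% of all 32851 promoter windows. The RNA-arm member Adar held no GAAANNGAAA at any of its 3 starts. TTCNNNGAA was found in 1 of the 6, at 1 of 3 Adar starts, and in 8.30% of all windows. A match of letters is a description and shows no binding, and no match says only that these letters are not in the window.

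Levels between genes were compared as CPM (reads scaled to a common library size by TMM) per kilobase of annotated exon. Adar, which edits double-stranded RNA so that it escapes the sensors, was far the highest at 16.5 ± 4.89 in PS19 (SD, n = 4) and 15.6 ± 6.3 in WT (SD, n = 4). In WT the order then ran Aim2 (1.58 ± 1.21), Tmem173 (1.1 ± 0.301), Ddx58 (0.84 ± 0.234), Ifih1 (0.609 ± 0.324), Mb21d1 (0.599 ± 0.0657) and Dhx58 (0.437 ± 0.189), neighbours whose levels lay within an SD of each other. Ifi204 (0.0793 ± 0.114) and Zbp1 (0.0217 ± 0.0189) came last, below the others by more than their SD. In PS19 the order was Ddx58 (2.23 ± 0.955), Aim2 (2.05 ± 1.15), Tmem173 (1.81 ± 0.796), Ifih1 (1.43 ± 0.608), Dhx58 (1.29 ± 0.794), Ifi204 (0.934 ± 0.606), Mb21d1 (0.759 ± 0.23) and Zbp1 (0.609 ± 0.496), in each case within an SD of the next. Mb21d1 thus stood above Ifi204 and Zbp1 in WT but between them in PS19.

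**Figure D1:**
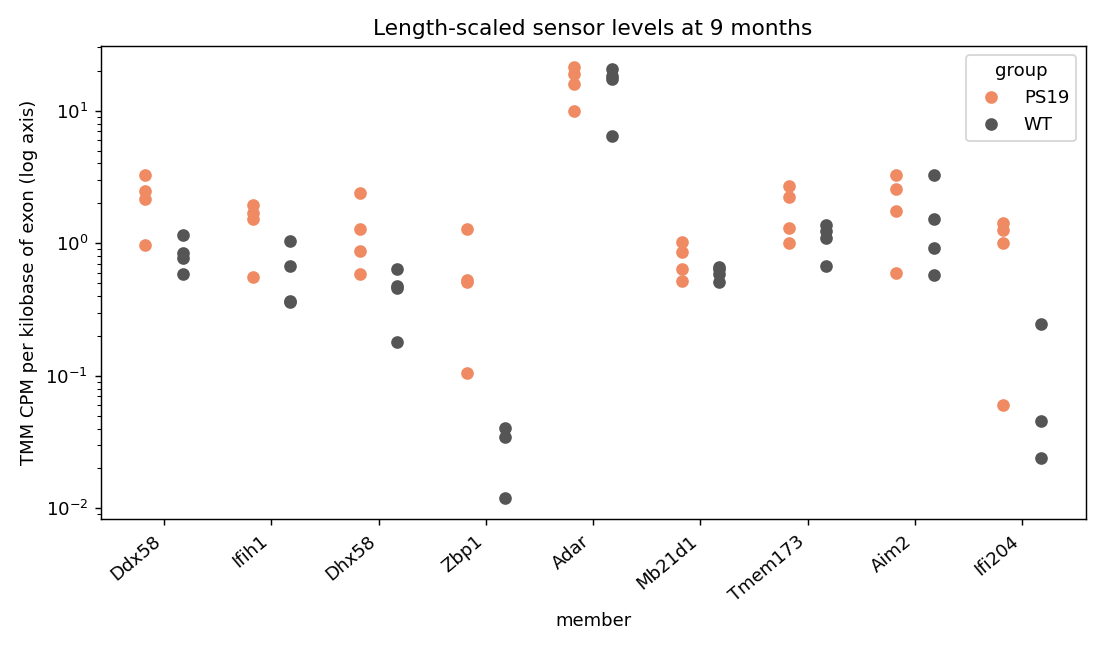
CPM per kilobase of exon (log axis) of 9 members in the 4 PS19 and 4 WT libraries, 1 point per library; libraries at 0 (1 for Zbp1 and 1 for Ifi204, both WT) cannot be drawn. Adar lies far above the rest, and Zbp1 and Ifi204 lie at the bottom in WT.

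Trex1 (chromosome 9, 109057933 to 109059734), a DNA exonuclease that clears cytosolic DNA, had 0 reads in all 23 libraries. All of its 1147 annotated exon bases (100%) lie in exons of Atrip on the same strand, which had 11185 reads. How reads shared by overlapping genes were counted is not given in the sources used here, so the 0 is not a measure of its transcript, and 9 of the 10 members passed the filter on low counts and were tested. Of the exon bases of Adar, 16.8% lie in exons of the antisense gene Chrnb2, those of Dhx58 in Dhx58os for 4.31% and those of Mb21d1 in Gm8093 for 4.87%. Of the Aim2 exon bases, 0% lie in exons and 2.71% within the body of Cadm3 on the opposite strand, a gene with 211775 reads against 2733 for Aim2. The strand setting of the counting is not given, so reads that fall on the shared bases of these 4 members cannot be told from those of the partner. Most exon bases of each are free of the partner's exons. Within the whole body of the partner lie 40.6% of the exon bases of Adar, 35.3% of those of Dhx58 and 6.79% of those of Mb21d1.

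The RNA arm was first compared between PS19 and WT at 9 months. Zbp1 (chromosome 2, 173206612 to 173218923), a sensor of Z-form nucleic acid that can start necroptosis, read 4.57, 0.372, 1.85 and 1.8 CPM in the PS19 libraries, against 0.141, 0.0423, 0 and 0.123 CPM in WT. Those WT values rest on 0 to 3 reads per library, and the PS19 values on 7 to 103. Lsd1het had 2 to 4 reads, so at 9 months Zbp1 passed the filter on low counts only through the transgenic libraries. It is high there, so that it was tested at all depended on those libraries. Every PS19 library lay above every WT library, which held for 1 of the 9 tested members and 1.00% of all genes tested. The log2 difference was 4.56 (SE 0.81; edgeR adjusted p = 0.112). It passed by DESeq2 at 4.65 (adjusted p = 7.1e-05), and passed by both tools with the replicate number as a block (edgeR 4.37, adjusted p = 0.0343; DESeq2 adjusted p = 7.71e-07). Within replicates 1 and 2 the log2 difference was 4.76 and within replicates 3 and 4 it was 4.37 (edgeR).

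Ddx58 (chromosome 4, 40203773 to 40239828), whose promoter match is shown above, read 23.1, 6.85, 15.3 and 17.6 CPM in PS19, against 4.15, 5.93, 8.12 and 5.48 CPM in WT. PS19 replicate 2 lay within the WT range and the other 3 above it. PS19 exceeded WT by 1.41 on the log2 scale, a 2.66-fold difference (SE 0.33; edgeR adjusted p = 0.2), and Ddx58 passed by DESeq2 at 1.39 (adjusted p = 0.00912). It was 1.62 within replicates 1 and 2 and 1.27 within replicates 3 and 4 (edgeR). Leaving out PS19 replicate 1 or 4 ended the DESeq2 call (adjusted p = 0.173 and 0.103), as did leaving out WT replicate 1 or 4 (0.0816 and 0.0712), and it did not hold with the compared groups alone (0.126).

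Ifih1 (chromosome 2, 62595798 to 62646255) read 15.9, 4.57, 13.9 and 12.4 CPM in PS19, against 2.97, 2.92, 8.51 and 5.48 CPM in WT. Again PS19 replicate 2 alone lay within the WT range. The Ifih1 log2 difference was 1.24 (SE 0.43; edgeR adjusted p = 0.677, DESeq2 adjusted p = 0.299). Blocking on replicate number, Ifih1 passed by DESeq2 at 1.23 (adjusted p = 0.00505), not by edgeR (adjusted p = 0.142).

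Dhx58 (chromosome 11, 100694884 to 100704271) encodes LGP2, a relative of RIG-I that lacks the signalling domains and tunes the other receptors. It read 7.85, 2.87, 1.92 and 4.22 CPM in PS19, against 1.51, 2.07, 0.587 and 1.55 CPM in WT. Only PS19 replicate 3, a library rich in mitochondrial reads, lay within the WT range. For Dhx58 the log2 difference was 1.53 (SE 0.45; edgeR adjusted p = 0.406, DESeq2 adjusted p = 0.0777), and with the block it passed by DESeq2 at 1.51 (adjusted p = 0.00498), not by edgeR (adjusted p = 0.138).

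Adar (chromosome 3, 89715022 to 89753446) differed least in that arm. It read 153, 172, 80.3 and 129 CPM in PS19, against 148, 167, 52 and 141 CPM in WT. The lowest value of each group was replicate 3, the library of high mitochondrial share, and the groups overlapped throughout. The log2 difference was 0.07 (95% interval -0.60 to 0.74; edgeR adjusted p = 1), and -0.01 (-0.37 to 0.35) without those 2 libraries. The counts do not separate the interferon-inducible long form from the constitutive short form.

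In the DNA arm the nuclear and cytosolic DNA-binding protein Ifi204 (chromosome 1, 173747293 to 173766943) differed most. It read 3.59, 0.213, 5.01 and 4.49 CPM in PS19, against 0, 0.0847, 0.881 and 0.164 CPM in WT, where counts were 0 to 9 reads per library. Lsd1het had 0 to 2 reads, so Ifi204 too passed the filter through the transgenic libraries. PS19 replicate 2 lay within the WT range and the other 3 above it. Its log2 difference was 3.82 (SE 1.06; edgeR adjusted p = 0.356), and Ifi204 passed by DESeq2 at 3.66 (adjusted p = 0.0228). It was 5.33 within replicates 1 and 2 and 3.36 within replicates 3 and 4 (edgeR). That DESeq2 call ended on leaving out PS19 replicate 1, 3 or 4 (adjusted p = 0.172, 0.0901 and 0.206) or WT replicate 1, 2 or 4 (0.0792, 0.118 and 0.154), and with the compared groups alone (0.144). Ifi204 belongs to a cluster of similar genes, and how reads that fit several of them were counted is not given.

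The cGAS and STING genes differed less. Tmem173 (chromosome 18, 35733679 to 35740554) read 7.4, 3.56, 2.75 and 6.16 CPM in PS19, against 3.39, 3.77, 1.86 and 3.03 CPM in WT. PS19 replicates 1 and 4 lay above every WT library and replicates 2 and 3 within the WT range. Its log2 difference was 0.71 (95% interval 0.00 to 1.43; edgeR adjusted p = 1). Mb21d1 (chromosome 9, 78430526 to 78443237), which encodes cGAS, read 2.62, 2.13, 4.26 and 3.52 CPM in PS19, against 2.12, 2.41, 2.74 and 2.62 CPM in WT. PS19 replicates 3 and 4 lay above the WT range. Its log2 difference was 0.34 (95% interval -0.31 to 0.99; edgeR adjusted p = 1).

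Aim2 (chromosome 1, 173350879 to 173466040), the DNA receptor of an inflammasome, read 6.16, 2.07, 11.5 and 8.98 CPM in PS19, against 3.2, 2.03, 11.5 and 5.32 CPM in WT. The highest library of each group was replicate 3, of high mitochondrial share, the inverse of what Adar showed. The groups overlapped, and the log2 difference was 0.39 (95% interval -0.92 to 1.69; edgeR adjusted p = 1).

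**Figure D2:**
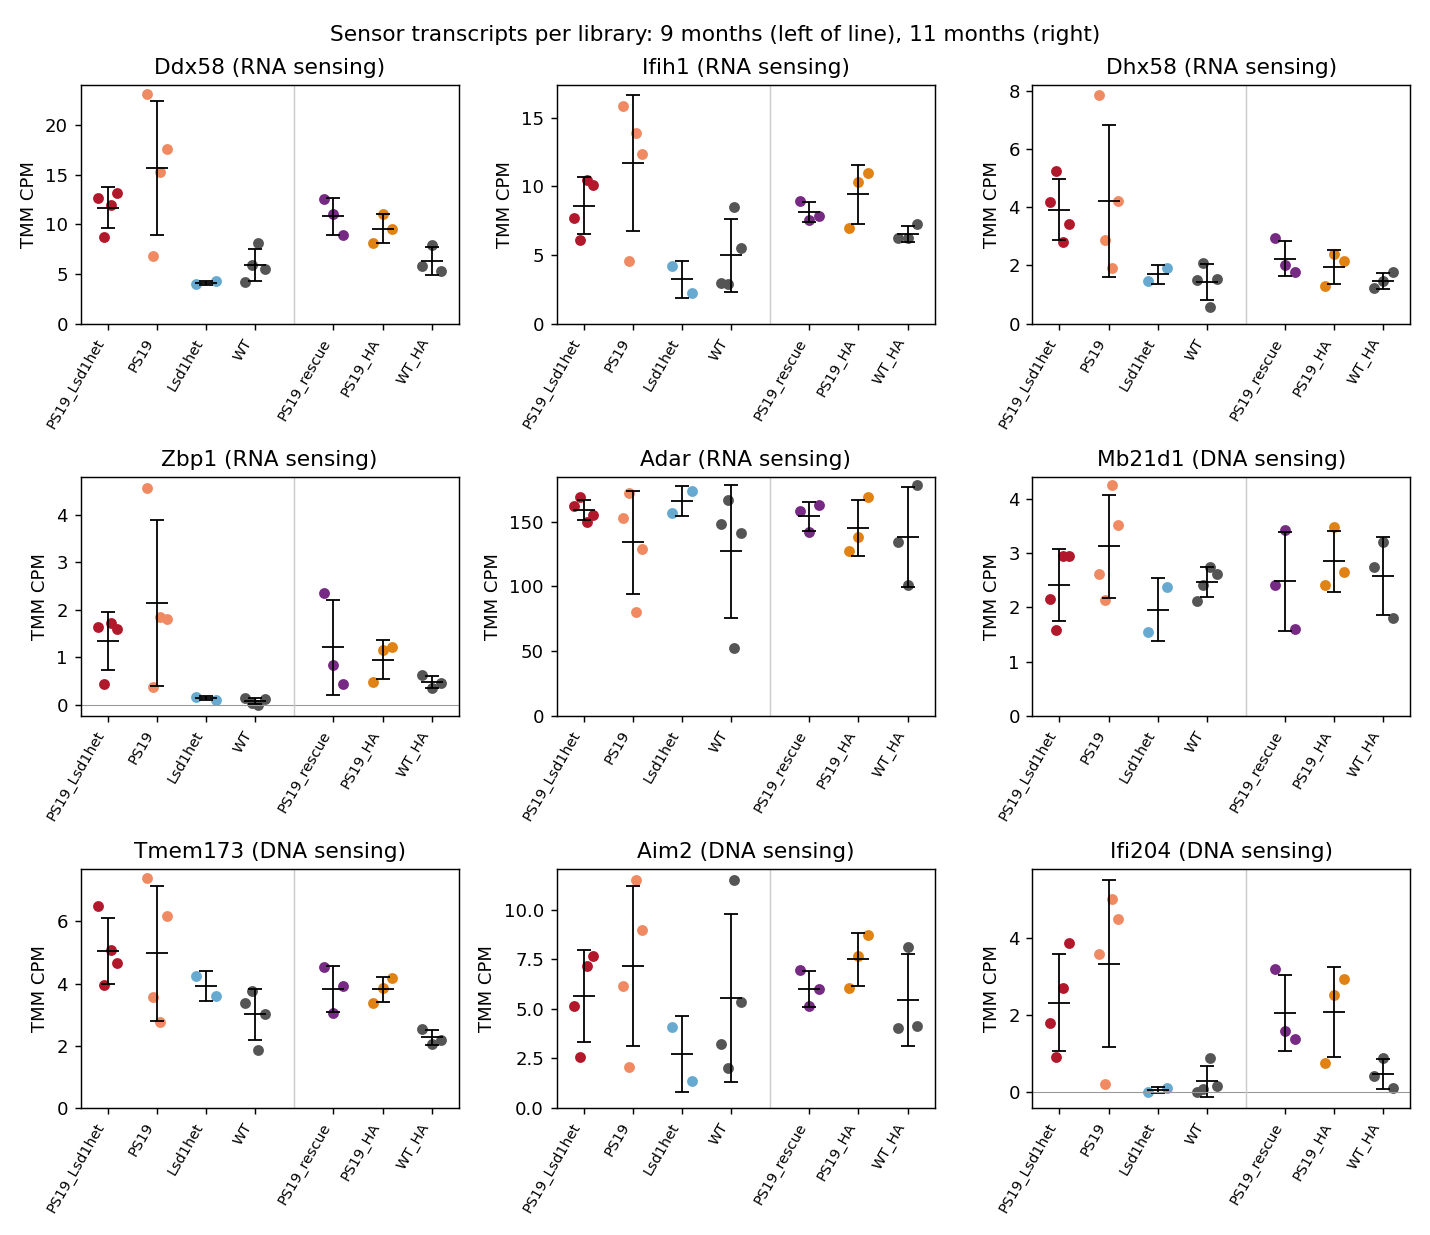
TMM CPM of 9 members in each library (points) with the group mean and SD (bars), in a panel each; 9-month groups stand left of the grey line and 11-month groups right of it. Zbp1 and Ifi204 lie near 0 in WT and Lsd1het, and 1 PS19 library, replicate 2, lies near WT for most members.

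Counted together, edgeR called 0 of the 9 tested members in PS19 against WT, where it called 0.00497% of all 20122 genes, and 5 had an unadjusted p under 0.05. DESeq2 called 3 higher and 0 lower, Ddx58, Zbp1 and Ifi204, against 0.949% of all genes. Of these, Zbp1 and Ifi204 passed the filter on low counts through the transgenic libraries, where they are high. With the replicate block edgeR called 1 (background 0.0248%) and DESeq2 called 5, adding Ifih1 and Dhx58 (background 1.81%). With the compared groups alone DESeq2 called 0 of the 8 members tested (background 0.354%); Zbp1 did not pass the filter on low counts there, so its call was not tested in that setting. The median log2 difference was 1.24 over the 9 members, 1.41 over the RNA arm (5 tested) and 0.55 over the DNA arm (4 tested), against -0.02 over all genes (edgeR). The difference between the arms was not tested. The arms are not pure sets of RNA and DNA sensors: the RNA arm holds Zbp1, a sensor of Z-form nucleic acid, and the editing enzyme Adar. Without PS19 replicate 2, edgeR called 2 and DESeq2 called 5, while the share of all genes called was 0.725% and 1.68%.

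PS19_Lsd1het was next set against WT. Zbp1 read 1.65, 0.443, 1.72 and 1.59 CPM in PS19_Lsd1het, all above the WT libraries given above, and passed by DESeq2 at a log2 difference of 3.96 (adjusted p = 0.00297), not by edgeR (3.88, SE 0.81, adjusted p = 0.286). Ifi204 read 1.79, 0.923, 2.7 and 3.86 CPM, a log2 difference of 3.29 (SE 1.06; edgeR adjusted p = 0.575, DESeq2 adjusted p = 0.125). Ddx58 read 12.7, 8.71, 12 and 13.2 CPM, a log2 difference of 0.98 (SE 0.33; edgeR adjusted p = 0.629). For Zbp1, Ifi204 and Ddx58, replicate 2 was the lowest of the 4 libraries, and all 4 lay above WT.

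Dhx58 read 4.19, 5.24, 2.82 and 3.43 CPM in PS19_Lsd1het, with a log2 difference of 1.43 (SE 0.45; edgeR adjusted p = 0.555). Tmem173 read 6.49, 3.95, 5.08 and 4.66 CPM, with a log2 difference of 0.73 (SE 0.33; edgeR adjusted p = 0.789). Both also lay wholly above WT, so that 5 of the 9 members did so, against 3.46% of all genes tested. Wholly below WT lay 0 members, against 0.909% of all genes. Of the 5, Zbp1 and Ifi204 passed the filter on low counts through the transgenic libraries, where they are high. The other 4, Ifih1, Adar, Mb21d1 and Aim2, had log2 differences of 0.80, 0.32, -0.04 and 0.04 with groups that overlapped. The interval of the Mb21d1 difference was -0.70 to 0.61.

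In that comparison edgeR called 0 of the 9 (background 0.00497%, 5 with an unadjusted p under 0.05) and DESeq2 called 1 (background 0.547%). With the replicate block DESeq2 called 3, adding Dhx58 (adjusted p = 0.00483) and Ifi204 (0.000801), where it called 4.33% of all genes. With the block edgeR called 0 (background 0.0199%). Within replicates 1 and 2 the log2 differences of Zbp1, Ifi204, Ddx58, Dhx58 and Tmem173 were 3.47, 4.78, 1.10, 1.41 and 0.56, and within replicates 3 and 4 they were 4.22, 2.82, 0.89, 1.47 and 0.97 (edgeR). These comparisons and those of PS19 share the WT libraries.

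**Figure D3:**
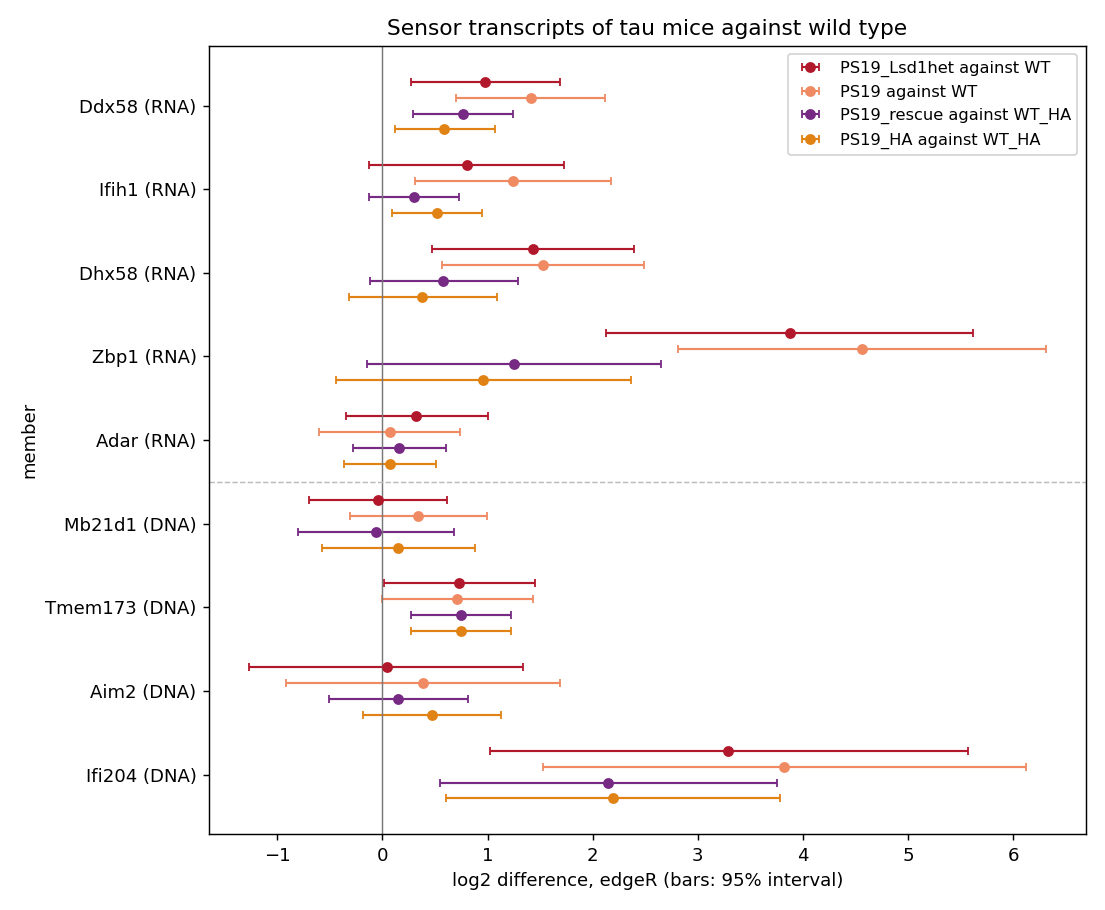
Log2 differences (edgeR, points) with 95% intervals (bars) of 9 members in 4 comparisons of transgenic against wild-type hippocampus, RNA arm above the dashed line and DNA arm below it. Zbp1 and Ifi204 have the largest values at 9 months (4.56 and 3.82 in PS19), while Adar, Mb21d1 and Aim2 have intervals that span 0 in all 4.

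The summed level of 10 microglial markers ran from 329 to 611 CPM in PS19_Lsd1het, from 340 to 772 CPM in PS19, from 279 to 280 CPM in Lsd1het and from 289 to 325 CPM in WT, with all 10 detected in every group. Within PS19 it was 716 and 772 CPM in replicates 1 and 4 and 340 and 350 CPM in replicates 2 and 3. The microglial sum of PS19 replicate 3, a library with a mitochondrial share of 16.1%, lay just above the WT range. That library read 1.85 CPM of Zbp1, 15.3 of Ddx58, 5.01 of Ifi204, 13.9 of Ifih1 and 4.26 of Mb21d1, all above WT. Its Dhx58 (1.92 CPM), Tmem173 (2.75), Adar (80.3) and Aim2 (11.5) did not exceed the WT range. WT replicate 3, with a mitochondrial share of 33.9%, was the highest WT library for Ddx58, Ifih1, Ifi204, Mb21d1 and Aim2. It was the lowest for Zbp1, Dhx58, Tmem173 and Adar. The part of what sets these libraries apart was not tested. PS19 replicate 2, with a microglial sum similar to that of PS19 replicate 3, lay above WT for Zbp1, Dhx58 and Adar only. PS19 replicate 2 read 37.3 CPM over 12 interferon-stimulated genes, against 88.8 to 218 CPM in the other PS19 libraries and 18.9 to 35.6 CPM in WT. Astrocyte markers (7 genes, all detected) summed to 5946 to 8888 CPM in PS19_Lsd1het, to 8870, 5029, 7090 and 10842 CPM in PS19 and to 4583 to 6317 CPM in WT, so PS19 replicate 2 alone lay within the WT range, as for Ddx58. Against WT their median log2 difference was 0.32 in PS19 and 0.47 in PS19_Lsd1het, with highest values of 2.58 and 2.64 (edgeR). DESeq2 called 1 of the 7 in each. Oligodendrocyte markers (5 genes, all detected) summed to 4195 to 5279 CPM in PS19_Lsd1het and 3706 to 5786 CPM in PS19, against 3332 to 3738 CPM in WT, with no overlap for PS19_Lsd1het. In whole tissue, more cells of a type and more RNA per cell cannot be told apart, and the part of microglial, astrocyte and oligodendrocyte number in these values was not tested. T cell markers summed to 0.903 to 1.85 CPM in PS19 and 0.895 to 11.2 CPM in WT. Choroid plexus markers summed to 284 to 2272 CPM in PS19 and 67.6 to 2087 CPM in WT, and their part was not tested.

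**Figure D4:**
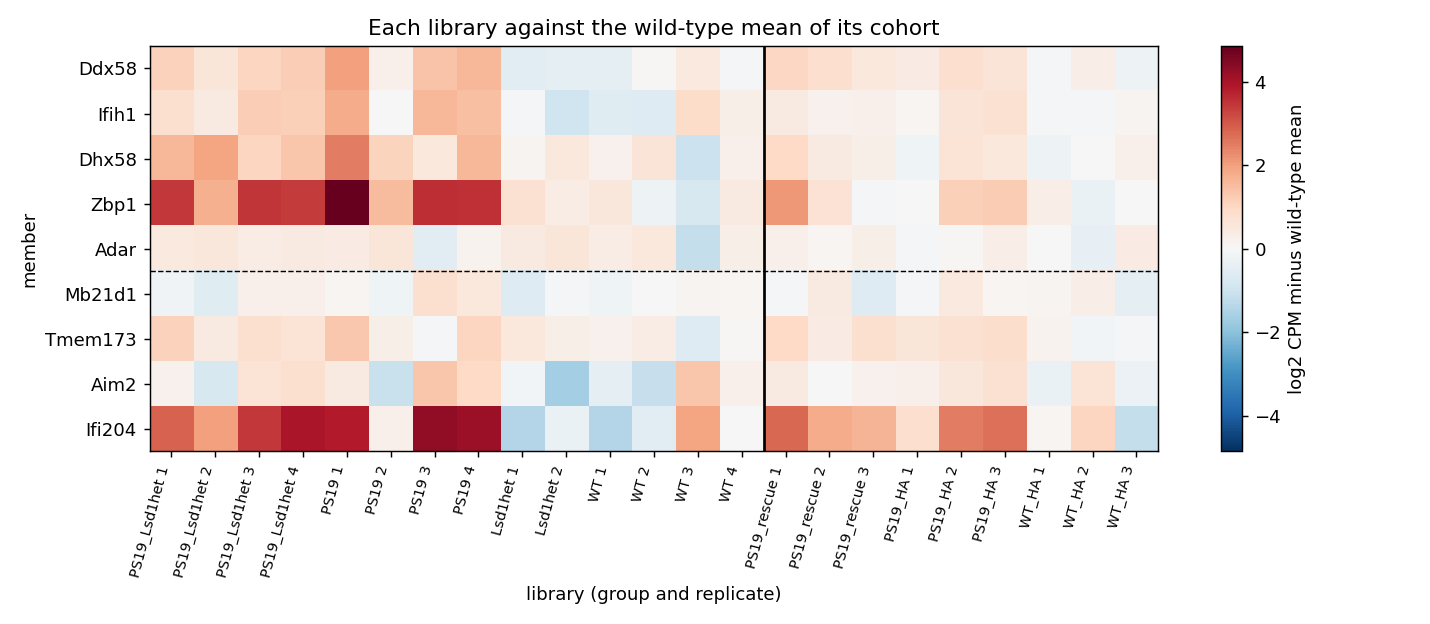
Log2 CPM (prior count 2) of 9 members in each library minus the mean of the wild-type libraries of the same cohort, with the 9-month libraries left of the thick line and the RNA arm above the dashed line. PS19 replicate 2 is paler than the other PS19 libraries for Zbp1 and Ifi204, and WT replicate 3 is low for Adar (52 CPM) and high for Aim2 (11.5 CPM).

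The partners of each arm were counted from lists, none of whose genes edgeR called in PS19 against WT. The lists were chosen with earlier results of these data known, so the counts are a description. DESeq2 called 0.949% of all genes in that comparison, which is the background for each list below. Of 17 RNA sensing partners, DESeq2 called 6 higher and 0 lower, and the list's median was 0.92 on the log2 scale, against -0.04 over all genes. Most of the 6, among them the 4 of lowest p, were of the OAS family of related genes. Its best-known members make a signal for RNA decay on binding double-stranded RNA. Oasl2 averaged 32.2 ± 30.6 CPM in PS19 and 2.77 ± 1.15 CPM in WT (± is SD over 4 libraries each; log2 difference 3.53, DESeq2 adjusted p = 5.47e-06). Oasl1, Oas1a and Oas2 had log2 differences of 4.12, 3.96 and 2.55 (DESeq2 adjusted p = 0.00169, 0.00327 and 0.0299).

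Of 21 tested DNA sensing partners, DESeq2 called 2 higher and 0 lower, at a list median of 0.09 on the log2 scale. Both, Ifi209 and Ifi207, are relatives of Ifi204. Ifi209 lay near 0 in WT, so that it was tested at all depended on other groups. The difference between the RNA and DNA lists was not tested. Ifi209 averaged 1.4 ± 0.805 CPM in PS19 and 0.0669 ± 0.0546 CPM in WT (± is SD over 4 libraries each; log2 difference 4.43, DESeq2 adjusted p = 0.000581), and Ifi207 averaged 3.08 ± 1.87 CPM in PS19 and 0.425 ± 0.377 CPM in WT (log2 difference 2.92, DESeq2 adjusted p = 0.00654). The RNA route's adaptor gene Mavs, chosen for its role after its values were seen, was not called, at 9.52 ± 2.77 CPM in PS19 and 6.75 ± 1.77 CPM in WT (edgeR log2 difference 0.49).

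Of 12 shared kinases and transcription factors, DESeq2 called only Irf7, an interferon-inducible regulator of interferon genes, at 12.4 ± 13.7 CPM in PS19 and 0.929 ± 0.32 CPM in WT (± is SD over 4 libraries each; log2 difference 3.71, DESeq2 adjusted p = 4.04e-06). The kinase gene Tbk1, named likewise, was not called at 54.8 ± 7.71 CPM in PS19 and 57.3 ± 8.63 CPM in WT. Of 9 brakes on sensing it called Usp18 and Nlrc5 (log2 difference 3.21 and 2.77, DESeq2 adjusted p = 1.87e-05 and 0.000751). In the list of interferons and their receptors, the 5 interferon genes Ifnb1, Ifna2, Ifna4, Ifng and Ifne had 1, 3, 1, 1 and 2 reads over all 23 libraries and were not tested. Of 12 interferon-stimulated genes it called 10 higher and 0 lower, with a median log2 difference of 2.59. In PS19_Lsd1het against WT, DESeq2 called Oasl2 and Oas1a, Ifi209, Irf7, Usp18 and Nlrc5, and 5 of the 12 interferon-stimulated genes (background 0.547%).

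**Figure D5:**
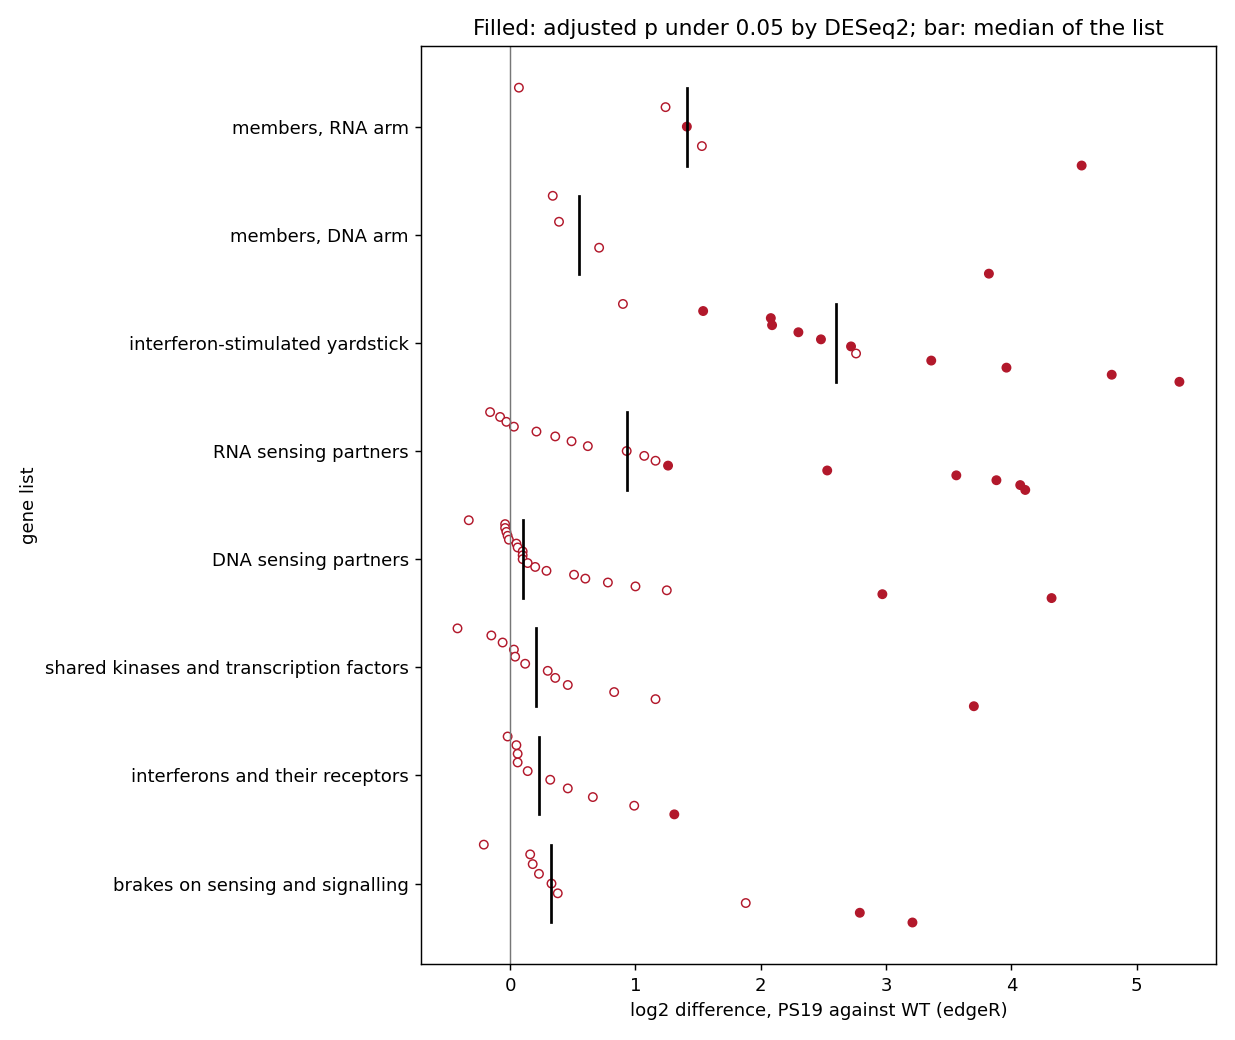
Log2 differences of PS19 against WT (edgeR, x axis) for the members of each arm and for the genes of 6 lists, 1 point per gene spread down the row, filled where DESeq2 gave an adjusted p under 0.05; black bars are medians. Of the RNA sensing partners 6 of 17 are filled and of the DNA sensing partners 2 of 21, against 0.949% of all genes tested.

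The Lsd1 dose was examined with and without tau. In PS19_Lsd1het against PS19, whose CPM are given above, both tools called 0 of the 9 members, with backgrounds of 0% (edgeR) and 0.00497% (DESeq2) and 0 at an unadjusted p under 0.05 by either tool. The log2 differences of Ddx58, Zbp1, Ifi204 and Tmem173 were -0.43, -0.68, -0.53 and 0.02. Their 95% intervals were -1.13 to 0.26, -2.04 to 0.68, -2.42 to 1.36 and -0.69 to 0.73, so differences of that size were not detectable. The Zbp1 value was 0.03 without PS19 replicate 1.

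In Lsd1het without the transgene, Zbp1 read 0.172 and 0.11 CPM, Ifi204 read 0 and 0.11 CPM, Ddx58 read 3.96 and 4.25 CPM and Tmem173 read 4.26 and 3.59 CPM. Zbp1 and Ddx58 reached neither PS19 nor PS19_Lsd1het levels in either library. Against WT both tools called 0 of the 9 (backgrounds 0% by edgeR and 0.00497% by DESeq2, 0 at an unadjusted p under 0.05), with a median log2 difference of -0.34 (4 members above 0, 5 below). Lsd1het has replicates 1 and 2 only, whereas WT also has the set of replicates 3 and 4, and within replicates 1 and 2 the median was 0.08 (6 above 0, 3 below), so its sign depends on the libraries set against Lsd1het. The Zbp1 values rest on 4 and 2 reads in Lsd1het and 0 to 3 reads in WT. The 95% interval of the Ddx58 difference was -1.41 to 0.36 and that of Tmem173 was -0.50 to 1.24. The Lsd1 effect with tau minus that without tau was called for 0 of the 9 by both tools (backgrounds 0% and 0.00994%, 0 at an unadjusted p under 0.05), with a median of -0.04 (4 above 0, 5 below). Within replicates 1 and 2 it was -0.21 (0 above 0, 9 below), also with 0 called by both tools.

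At 11 months, PS19_HA against WT_HA asked whether the tau difference recurred in virus-treated hippocampus. Tmem173, the gene of STING, read 3.39, 3.87 and 4.19 CPM in PS19_HA, against 2.53, 2.07 and 2.19 CPM in WT_HA, with no overlap. The log2 difference was 0.75 (SE 0.21), unadjusted p = 0.00584 by edgeR, and it did not pass (edgeR adjusted p = 0.454, DESeq2 adjusted p = 0.181). Ddx58 read 8.14, 11 and 9.57 CPM in PS19_HA, against 5.78, 7.94 and 5.32 CPM in WT_HA, also with no overlap (log2 difference 0.59, SE 0.21, edgeR adjusted p = 0.498). These 2 of the 9 members lay wholly above WT_HA, against 7.78% of all genes tested. Wholly below it lay 0 members, against 5.54% of all genes.

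Ifi204 read 0.748, 2.53 and 2.93 CPM in PS19_HA, against 0.416, 0.888 and 0.117 CPM in WT_HA, and replicate 1 of PS19_HA lay within the WT_HA range. Its log2 difference was 2.19 (SE 0.71; edgeR adjusted p = 0.462, DESeq2 adjusted p = 0.159). Zbp1 read 0.484, 1.16 and 1.23 CPM in PS19_HA, against 0.623, 0.355 and 0.469 CPM in WT_HA, again with replicate 1 inside the WT_HA range (log2 difference 0.96, SE 0.62, edgeR adjusted p = 0.691). Ifih1 read 7, 10.3 and 11 CPM in PS19_HA, against 6.23, 6.22 and 7.23 CPM in WT_HA (log2 difference 0.52, SE 0.19, edgeR adjusted p = 0.518). For these 3 genes it was replicate 1 that overlapped.

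The remaining log2 differences were 0.38 for Dhx58, 0.07 for Adar, 0.15 for Mb21d1 and 0.47 for Aim2, each with an interval that spans 0. Both tools called 0 of the 9, with backgrounds of 0.0156% (edgeR) and 0.627% (DESeq2) and 4 members at an unadjusted p under 0.05 by each. Without PS19_HA replicate 1, DESeq2 called 2 members, Ifih1 (adjusted p = 0.0364) and Ifi204 (0.0191), and 1.73% of all genes. The median was 0.52 over the members, 0.52 over the RNA arm and 0.61 over the DNA arm, against 0.00 over all genes. The microglial sum was 315 CPM in PS19_HA replicate 1 and 451 and 546 CPM in replicates 2 and 3, against 280 to 328 CPM in WT_HA. Choroid plexus markers summed to 380 to 3534 CPM in PS19_HA and 39.6 to 928 CPM in WT_HA, and oligodendrocyte markers to 3659 to 5212 CPM in PS19_HA and 1877 to 3820 CPM in WT_HA. The median log2 differences of these marker lists were 0.53 (microglia), 2.27 (choroid plexus) and 0.79 (oligodendrocytes), and their part was not tested. Of the interferon-stimulated genes DESeq2 called Bst2, Cxcl10 and Ifi44 higher (3 of 12), and of the brakes Nlrc5.

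LSD1 virus was set against the HA control in PS19 mice. Ddx58 read 12.6, 11 and 8.89 CPM in PS19_rescue, Tmem173 4.53, 3.04 and 3.91 CPM, Zbp1 2.35, 0.833 and 0.447 CPM and Ifi204 3.18, 1.58 and 1.38 CPM, ranges that overlapped those of PS19_HA in each case. The log2 differences from PS19_HA were 0.17, 0.00, 0.29 and -0.04 in that order, with SE of 0.21, 0.20, 0.58 and 0.62. The 95% intervals of Ddx58 and Tmem173 were -0.29 to 0.64 and -0.46 to 0.46. The Zbp1 value was -0.58 without PS19_rescue replicate 1. Both tools called 0 of the 9 (backgrounds 0% by edgeR and 0.0156% by DESeq2, 0 at an unadjusted p under 0.05). PS19_rescue replicate 1 had the highest Ddx58, Zbp1, Tmem173 and Ifi204 of its group, and also the highest Kdm1a, at 10808 CPM. This is 1 library, and a relation of the sensors to the Kdm1a level was not tested.

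PS19_rescue lay wholly above WT_HA for 5 of the 9 members, Ddx58, Ifih1, Dhx58, Tmem173 and Ifi204, against 5.78% of all genes tested. Wholly below WT_HA lay 0 members, against 5.14% of all genes. Ifi204 rests on 3 to 15 reads per library in WT_HA. It passed the filter on low counts through the transgenic libraries, where it is high. The log2 differences were 0.77 for Ddx58 (SE 0.21), 0.75 for Tmem173 (SE 0.21) and 2.15 for Ifi204 (SE 0.71), all at an edgeR adjusted p of 0.864. Both tools called 0 of the 9 (backgrounds 0.0207% by edgeR and 0.0933% by DESeq2), with 3 at an unadjusted p under 0.05 by each, although Ddx58 passed by DESeq2 at 0.97 without WT_HA replicate 2 (adjusted p = 0.0393; background 0.0606%). The microglial sum was 347 to 359 CPM in PS19_rescue, against 280 to 328 CPM in WT_HA, also without overlap. The astrocyte, oligodendrocyte and choroid plexus sums overlapped, and the part of these cells was not tested. The comparisons of PS19_rescue share the PS19_HA or WT_HA libraries with the ones before.

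The tau difference at 11 months minus that at 9 months was fitted over all libraries. Age, virus and cohort differ together and cannot be told apart. The difference was -3.59 for Zbp1 (SE 1.09; unadjusted p = 0.00364), which did not pass (edgeR adjusted p = 1). It was -0.82 for Ddx58 (95% interval -1.72 to 0.08), -1.14 for Dhx58 (-2.40 to 0.11), -1.69 for Ifi204 (-4.56 to 1.17) and 0.04 for Tmem173 (-0.86 to 0.93). Both tools called 0 of the 9, with a background of 0% by each and 1 member at an unadjusted p under 0.05 by each. The wild-type level of Zbp1 itself was 0.483 ± 0.135 CPM in WT_HA (SD, n = 3) and 0.0766 ± 0.0667 CPM in WT (SD, n = 4).

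The genes most like each member were found by Pearson correlation of log2 CPM over the 23 libraries, among the 16184 genes that averaged 1 CPM or more. The libraries share groups, cohorts and the shift between replicate sets, so the values are a description. Nearest to Ddx58 were Phf11d (r = 0.970), Ifi44 (0.962) and Ifit1 (0.958), and nearest to Ifih1 were Eif2ak2 (0.952), Ifit2 (0.946) and Ifit3 (0.941). Nearest to Ifi204 were Cd274 (0.959), Gbp2 (0.942) and Eif2ak2 (0.939), and to Zbp1 Irgm1 (0.941), Cxcl13 (0.928) and Cxcl10 (0.919).

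The remaining members had other neighbours. Tmem173 lay nearest Sh3bp2 (0.954), Tnfrsf1a (0.947) and Pld4 (0.938), and Dhx58 nearest Stat3 (0.930), Plcd4 (0.917) and Aspg (0.907). Aim2 lay nearest Tlr3 (0.933), 4931406C07Rik (0.926) and Eya4 (0.918), and Adar nearest Fbxo42 (0.968), Uqcrc1 (0.963) and Atp6ap1 (0.956). Mb21d1 had the lowest top value, with Hectd2 at 0.794, Mdm2 at 0.787 and 4933406C10Rik at 0.779. Between members, Ddx58 and Ifi204 correlated at 0.94 and Ddx58 and Ifih1 at 0.87, whereas Ddx58 and Adar stood at -0.17 and Tmem173 and Mb21d1 at -0.08.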

How the data were processed

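Counts per gene came from 23 hippocampal libraries, grouped by their titles. What the authors deposited are raw counts, whole numbers without normalization. Per the submitters' processing notes, FastQC 0.11.7, Trimmomatic 0.36.5, HISAT2 2.1.0, featureCounts 1.6.0.6 and DESeq2 2.11.40.2 were used on GRCm38. The annotation release, strand setting and rule for multiple alignments are not stated there and not given in the sources used here. GENCODE M21 gave symbols and coordinates for 54165 of 54232 identifiers, and the 67 others held 0.0184% of the counts.

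The main test was edgeR's (version 4.0.16, R 4.3.3) quasi-likelihood F test on these counts (TMM, robust, filterByExpr with minimum count 10 and minimum total 15), with Benjamini-Hochberg adjustment over all genes tested and a threshold of 0.05. The 14 libraries at 9 months shared a fit of 20122 genes, the 9 at 11 months a fit of 19290, and the cohort difference a fit of 20931. Standard errors are the log2 difference divided by the root of the F statistic. DESeq2 1.42.0 was the second tool. The fits were tried on simulated data without a shift between replicate sets. The simulated spread was lower than that of the 9-month libraries, whose biological coefficient of variation was 0.423. The simulation therefore does not show how either tool performs on these data. Same-numbered libraries were taken as pairs where all of at least 3 pairs had deviations that correlated above 0.1: at 9 months PS19 with WT gave 0.485 to 0.807, PS19_Lsd1het gave 0.301 to 0.524 with WT and 0.289 to 0.467 with PS19, and at 11 months WT_HA gave 0.101 to 0.277 with PS19_HA and 0.111 to 0.444 with PS19_rescue. PS19_rescue with PS19_HA (0.0632 to 0.23) and Lsd1het with WT (2 pairs) did not meet this. The pairing comes from the data, not the labels. Of the 4 numbers, 4 correlated best with their own number for PS19 with WT, 2 for PS19_Lsd1het with WT and 0 for PS19_Lsd1het with PS19, so the shift between replicate sets and true pairs cannot be told apart.

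Named were all 10 members, up to 4 called genes of each list in order of p (edgeR, or DESeq2 where edgeR called none), and the 3 genes most like each member; Mavs and Tbk1 were added after their values were seen. The members and lists were chosen with earlier results of these data known. The result for 1 gene of the list of interferons and their receptors is not reported here.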

Additional observations from a re-analysis of the deposited data

Results flagged for a closer look

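Zbp1 in PS19_Lsd1het replicate 2 stood apart from its group: 0.443 CPM, against 1.59 to 1.72 CPM in the other 3 libraries, a gap to the nearest library of 0.905 of the group's range, above Dixon's 95% critical value for 4 samples. It was 1 of 27 groups of 4 libraries examined (9 members in 3 groups), and about 1 in 20 such groups would pass by chance. Without that library, Zbp1 in PS19_Lsd1het against WT had a log2 difference of 4.26 by DESeq2 (adjusted p = 0.00139). The same library was also the lowest of its group for the summed microglial markers (329 CPM, against 512 to 611 CPM). It was lowest too for the 12 interferon-stimulated genes (53.5 CPM, against 83.8 to 104 CPM). No explanation was tested.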

How the results depend on the processing

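Of the 9 tested members in PS19 against WT, edgeR called 0, or 1 with the replicate block and 0 to 2 on leaving out a library (2 without PS19 replicate 2), where DESeq2 called 3. The DESeq2 count was 5 with the block or a term for the replicate sets (1 and 2, 3 and 4), 0 with replicates 1 and 2 alone, 0 of 8 with only the compared groups (Zbp1 was not tested there), and 1 to 5 on leaving out a library. It was 1 without PS19 replicate 1 or 4 or WT replicate 1 or 4, and 5 without PS19 replicate 2. In PS19_Lsd1het against WT, edgeR called 0 and DESeq2 called 1. The DESeq2 count was 3 with the block, that term or only the compared groups, 2 without the high-mitochondrial libraries, 0 with replicates 1 and 2 alone, and 1 to 2 on leaving out a library (2 without WT replicate 3). In PS19_HA against WT_HA it was 0 to 2 (2 without PS19_HA replicate 1) and in PS19_rescue against WT_HA 0 to 1 (1 without WT_HA replicate 2). The replicate block changed no other member's call. The causes were not tested.

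Signs turned for some log2 differences, none of them called. Leaving out a library gave -0.19 to 0.26 for Adar in PS19 against WT (-0.01 without the high-mitochondrial libraries). In PS19_Lsd1het against WT it gave -0.14 to 0.11 for Mb21d1 (0.13 with replicates 3 and 4 alone, 0.00 without the high-mitochondrial libraries) and -0.23 to 0.65 for Aim2 (-0.01 by DESeq2, 0.00 with RLE factors, -0.19 with replicates 3 and 4 alone). In PS19_Lsd1het against PS19 it gave -1.03 to 0.03 for Zbp1 and -0.19 to 0.31 for Tmem173 (-0.09 with replicates 1 and 2 alone, -0.17 without the high-mitochondrial libraries). In PS19_HA against WT_HA it gave -0.11 to 0.30 for Adar and -0.06 to 0.33 for Mb21d1. In PS19_rescue against PS19_HA it gave -0.58 to 0.70 for Zbp1, -0.48 to 0.30 for Ifi204 and -0.13 to 0.14 for Tmem173 (0.00 by DESeq2, 0.01 with RLE factors or only the compared groups). It gave -0.20 to 0.29 for Tmem173 in the cohort difference. Ifi204 in Lsd1het against WT was 0.13 with replicates 1 and 2 alone, against -2.07 with all. Zbp1 and Ifi204 in WT rest on 0 to 9 reads per library, which limits the precision of their differences.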
